A study of Mus musculus with 15 samples.

Results

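Respiratory complexes II to V are described here through 50 genes of the nuclear genome, taken by symbol from the 42396 gene entries of each deposited count table. The rule took the 4 succinate dehydrogenase genes, Cyc1, Cycs, Ndufa4, every symbol that begins with Uqcr or Atp5, and every symbol that begins with Cox4 to Cox8. Numbered copies of a symbol and pseudogenes were left out. By symbol, 4 members belong to complex II, 9 to complex III, 19 to complex IV and 17 to complex V, and cytochrome c (Cycs) is the remaining member. The rule uses symbols alone, although it was set with earlier results of these data known.

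RNA came from the tibialis anterior, which is a fast-twitch muscle at the front of the lower leg, of adult C57BL/6 mice whose hindlimb had received adeno-associated virus AAV6. The virus carried either LSMEM2 C-del or, as the mock treatment, EGFP, a green fluorescent protein, so every library in both arms came from virus-injected muscle. Muscle was taken 2 months after injection. The 8 male libraries were 4 of mock and 4 of C-del muscle, and the 7 female libraries were 3 of mock and 4 of C-del muscle. The meaning of C-del and the promoter carried by the virus were not given in the sources used. Each sex has its own deposited table, and the effect of sex and that of table cannot be told apart. The labels do not state that the libraries within a group are different animals, and p-values then measure no more than the differences among these samples, which could be technical.

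The inner mitochondrial membrane holds the respiratory chain. Complex II, which is also an enzyme of the citric acid cycle, passes electrons from succinate to ubiquinone. Complex III passes them from reduced ubiquinone to cytochrome c, complex IV passes them from cytochrome c to oxygen, and complexes III and IV move protons across the membrane as they do so. Complex V, the ATP synthase, uses the return of those protons to make ATP. In muscle these complexes are most abundant in oxidative fibres, and complex IV has several subunits that exist as a heart and muscle form and a form made in most other tissues. Some core subunits of complexes III to V are encoded in mitochondrial DNA, lie outside the rule, and were not analysed here.

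Levels are given as CPM, the count of a gene as a share of its library total, per the usual CPM unit, with totals corrected by TMM factors (a scaling that balances most genes between libraries) within each sex. Libraries held 14297600 to 17744000 counts in males and 9285150 to 12054900 in females. Lsmem2 checked the labels, with 28.5 to 29.8 CPM in male mock and 481 to 2355 CPM in male C-del libraries, and 30.0 to 32.7 CPM against 1361 to 2705 CPM in females. The labels' protocol text speaks of hearts, whereas the sample labels name skeletal muscle. The summed level of 5 heart markers (Myh6, Nppa, Myl7, Myl4 and Nppb) was 7.19 to 27.2 CPM in all libraries, with Myl7 and Nppb at or near 0, while the fast myosin Myh4 had group means of 23988 to 43844 CPM. Some libraries stood apart within their group. In females, the summed level of 10 antigen presentation genes was 2350 CPM in mock library 2 and 1640 CPM in mock library 3, against 245 CPM in mock library 1 and 179 to 268 CPM in C-del libraries, and that of 12 macrophage markers was 761 and 370 CPM against 103 CPM and 64.7 to 138 CPM. Mock library 3 also stood apart in short transcripts, as described further on. In males, C-del libraries 1 and 2 had macrophage sums of 224 and 245 CPM, against 69.5 and 90.3 CPM in C-del libraries 3 and 4 and 85.7 to 103 CPM in mock libraries.

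In male mock muscle the 50 members together took 2.27% to 2.32% of the scaled library. Of the 50 members, 47 passed the filter on low counts in both sexes. The other members were the complex IV genes Cox6b2, Cox7b2 and Cox8c, known as forms of testis and a few other tissues. Cox6b2 lay at 0.880 CPM or less in every library, Cox7b2 at 0.129 CPM or less, and Cox8c at 0 in all 15. Cox4i2, a form of subunit 4 known from lung, was tested but lay at 1.94 to 3.21 CPM in male mock libraries.

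Levels can be compared between genes only per length, here as CPM per kilobase of a reference transcript, a scale that depends on which transcript is chosen. On that scale Atp5b, the catalytic beta subunit of the ATP synthase, was highest, with 1869 ± 6.66 CPM per kilobase (SD, n = 4 male mock libraries). Cox6a2 and Cox8b, heart and muscle forms of complex IV subunits, followed with 1350 ± 25.5 and 1106 ± 35.9 CPM per kilobase. Next came Atp5g1, a gene for the membrane ring subunit c of the ATP synthase, with 1056 ± 26.1. The highest gene of complex III was Uqcrq, a small membrane subunit, with 885 ± 37.1, and that of complex II was Sdhb, the iron-sulphur subunit, with 507 ± 21.6. Cox8b and Atp5g1, neighbours in this order, did not differ beyond their SDs, whereas the others named were further apart than theirs. Subunits of 1 complex, which are assembled in fixed proportions, still differed widely in RNA, from 94.9 for Sdhc to 507 for Sdhb within complex II.

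**Figure D1:**
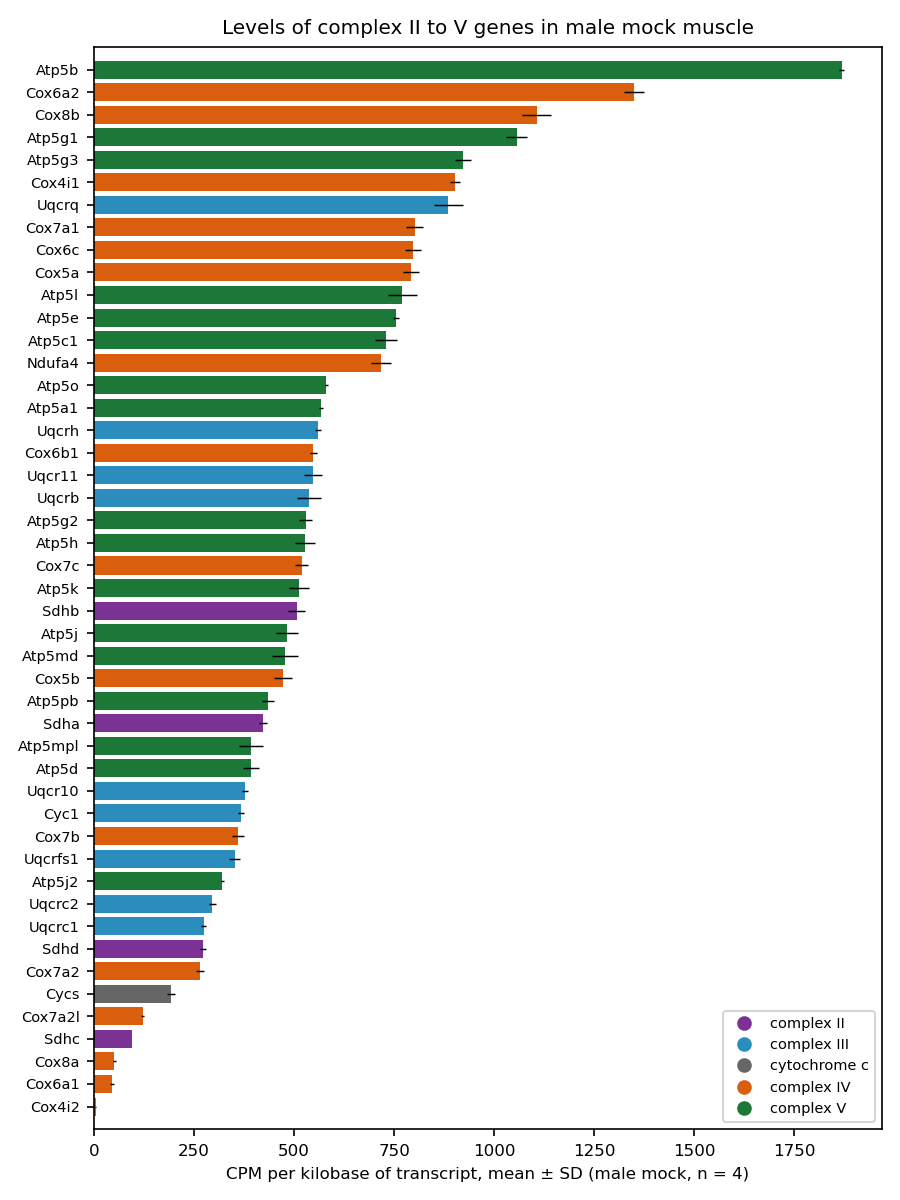
CPM per kilobase of transcript for the tested members in male mock muscle, as the mean (bar) ± SD (line) of 4 libraries, coloured by complex. Atp5b stands highest at 1869 and Cox4i2 lowest at 3.54, and genes of complexes III, IV and V are mixed along the order.

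With C-del in males, 6 members rose and 0 fell, out of 47 tested. They were Uqcrc1, Uqcrq and Cyc1 of complex III, Cox4i1 of complex IV, and Atp5g1 and Atp5d of complex V, and their rises lay between 1.10-fold and 1.19-fold. Of all 14543 genes tested in males, 5.8% were called higher and 5.37% lower at an adjusted p under 0.05 in edgeR's quasi-likelihood test. At an unadjusted p under 0.05 there were 11 higher members and 1 lower, beside 13.1% and 12.9% of all genes. With upper-quartile factors or with library totals alone as the scaling, 3 members passed as higher and 1, Cox6a2, as lower. The members' median log2 fold change was 0.042, with 35 above 0 and 12 below, beside a median of -0.0047 over all genes. In bulk tissue, more cells or fibres of a type and more RNA per fibre cannot be told apart.

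**Figure D2:**
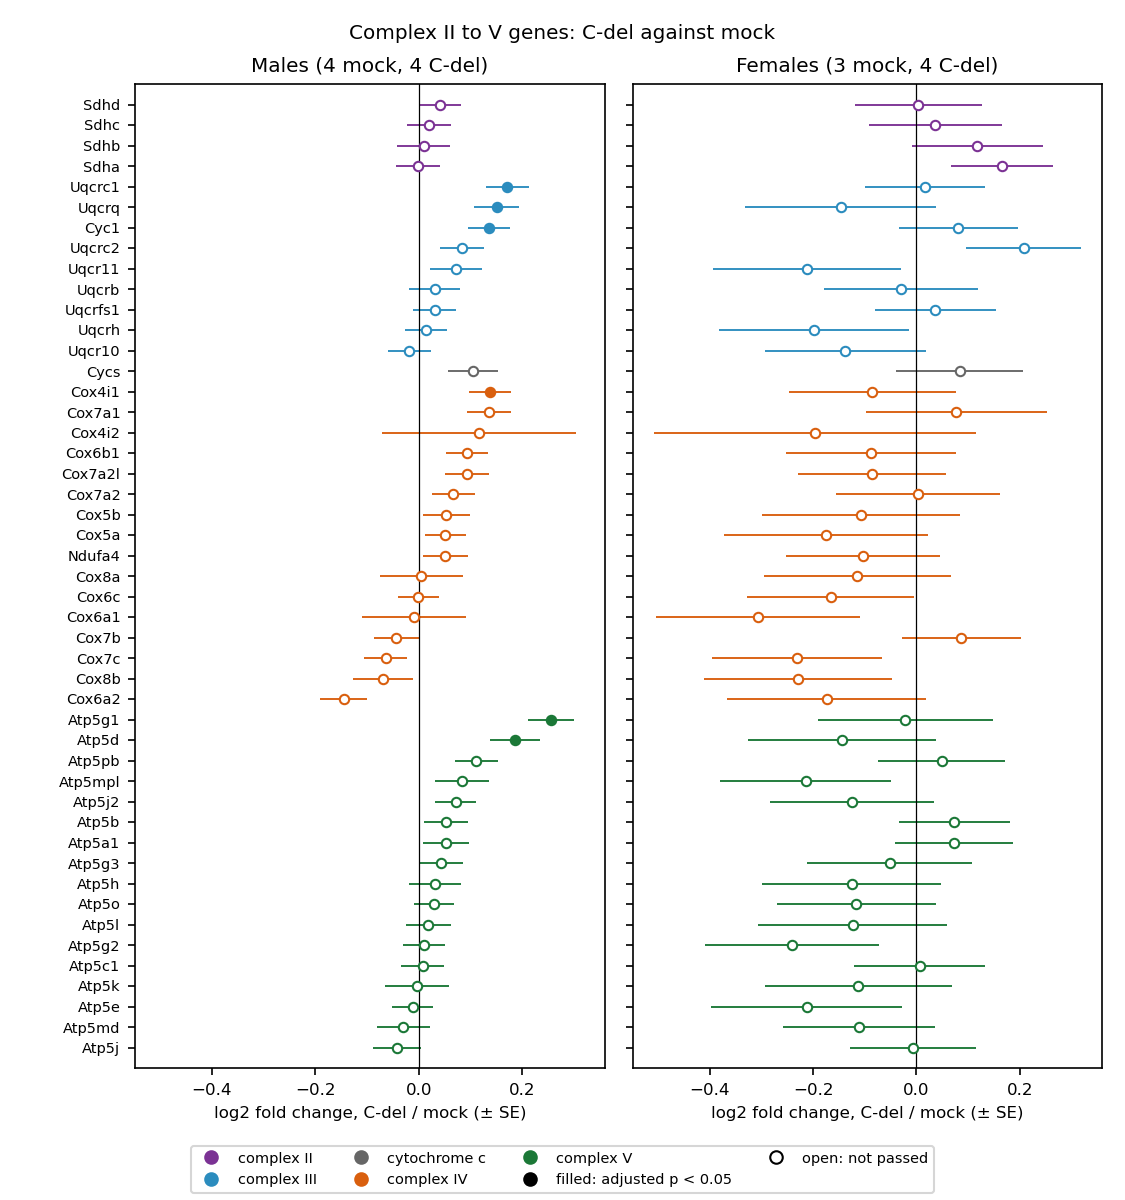
Log2 fold change of C-del against mock (points, ± SE) for the 47 tested members, in order of complex and male fold change, with males on the left and females on the right. Filled points passed at an adjusted p under 0.05. The 6 filled points are all in males and to the right of 0, and the SE lines are wider in females.

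Complex II is the only complex of the chain with no subunit encoded in mitochondrial DNA. In males 0 of its 4 genes passed, beside 5.8% of all genes called higher and 5.37% lower. With so few genes, a count of 0 says little about complex II. Sdhb, its highest member per length, lay at 567, 550.1, 604 and 593 CPM in mock and 628, 595, 548 and 558 CPM in C-del libraries, and the groups overlapped. Sdha, the flavoprotein that oxidises succinate, had means of 1222 ± 28.4 CPM in mock and 1220.5 ± 44.1 CPM in C-del libraries (SD, n = 4 each). The log2 fold changes of the 4 genes, Sdhc and Sdhd for the membrane anchors included, ran from -0.0012 to 0.042.

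Complex III held 3 of the 6 rises among its 9 genes, beside 5.8% of all genes called higher in males. Uqcrc1, a core protein of the complex on its matrix side, lay at 443, 462, 445 and 462 CPM in mock and at 536, 497, 503 and 505 CPM in C-del libraries. Every C-del library was above every mock library, and the log2 fold change was 0.17 ± 0.042 (SE; adjusted p = 0.0169). The gene lies at chr9:108936648-108949641 in RefSeq's annotation of GRCm38.p6.

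Uqcrq (chr11:53427922-53430831) lay at 349.8, 364, 377 and 343 CPM in mock and 408, 389, 406 and 390.1 CPM in C-del libraries. The groups did not overlap, and the log2 fold change was 0.15 ± 0.044 (adjusted p = 0.0381). Cyc1 (chr15:76343513-76346260), the cytochrome c1 that hands electrons to cytochrome c, lay at 559, 574, 553 and 550.3 CPM in mock and 638, 615, 594 and 609.6 CPM in C-del libraries. Its groups did not overlap either, at a log2 fold change of 0.14 ± 0.041 (adjusted p = 0.0459).

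The other 6 genes of complex III did not pass. Uqcrc2, the second core protein, had values of 574, 545, 546 and 578 CPM in mock and 619.5, 592, 581 and 585 CPM in C-del libraries, which do not overlap, at an adjusted p of 0.23. Uqcrfs1, the Rieske iron-sulphur protein, had a log2 fold change of 0.031. The small subunits Uqcrb, Uqcrh, Uqcr10 and Uqcr11 ran from -0.018 to 0.072. Cycs, the electron carrier between complexes III and IV, lay at 621, 553, 615 and 616 CPM in mock and 664, 623, 627 and 671 CPM in C-del libraries, without overlap and without passing (log2 fold change 0.11, adjusted p = 0.188).

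Complex IV gave 1 rise among 16 tested genes, beside 5.8% of all genes called higher in males, and values on both sides of 0. Cox4i1 (chr8:120668225-120674209), the common form of subunit 4, lay at 686, 669, 666 and 669 CPM in mock and 761, 739, 713 and 746 CPM in C-del libraries. Its groups were clear of each other, with a log2 fold change of 0.14 ± 0.040 (adjusted p = 0.0404).

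Cox7a1 and Cox6a2, heart and muscle forms of 2 different subunits, lay just outside the threshold on opposite sides of 0. Cox7a1 had 325, 318, 309 and 308 CPM in mock and 351, 359.9, 332 and 341 CPM in C-del libraries, with a log2 fold change of 0.14 ± 0.042 (adjusted p = 0.0517). Cox6a2 had 929.9, 928, 892 and 920.2 CPM in mock and 813, 779.7, 859 and 868 CPM in C-del libraries, with a log2 fold change of -0.14 ± 0.045 (adjusted p = 0.0543). It was the only tested member with every male C-del library below every mock library, as was the case for 8.47% of all genes. With DESeq2 it passed as lower (adjusted p = 0.0229), as did Cox7a1 as higher (0.0176), and Cox6a2 also passed as lower with upper-quartile factors (0.0371), with library totals alone (0.00942) and without a filter on low counts (0.0434).

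The remaining genes of complex IV did not pass in males. Cox8b, the heart and muscle form of subunit 8, had 397, 415, 398 and 383 CPM in mock and 348, 352, 409 and 409.9 CPM in C-del libraries, so 2 C-del libraries were below and 2 were within the mock range. Cox5a and Cox5b, which sit around the catalytic core, had log2 fold changes of 0.052 and 0.053. Cox6b1 and Cox7a2l, the latter a partner of complex III and IV supercomplexes, had 0.094 and 0.093, with every C-del library above every mock library. Ndufa4, long listed under complex I and now counted with complex IV, had 0.052. Cox6c, Cox7b and Cox7c had -0.0010, -0.043 and -0.064, and Cox7a2, Cox6a1, Cox8a and Cox4i2 had 0.067, -0.0084, 0.0052 and 0.12.

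Complex V held the member with the smallest p. Atp5g1 (chr11:96072793-96075694), one of several genes for the same mature subunit c, lay at 637, 646, 611 and 623 CPM in mock and 793, 757, 734 and 721 CPM in C-del libraries. The lowest C-del library was above the highest mock library, and the log2 fold change was 0.26 ± 0.044 (adjusted p = 0.00189), a 1.19-fold rise. Atp5d (chr10:80138698-80145828), the delta subunit of the central stalk, had 349, 389, 353 and 369 CPM in mock and 429, 407, 393 and 433 CPM in C-del libraries. The lowest C-del library exceeded the highest mock library by little, at a log2 fold change of 0.19 ± 0.049 (adjusted p = 0.0243).

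The other 15 genes of complex V did not pass. Atp5b, the gene with the most RNA per length, had 3566, 3596, 3576 and 3583 CPM in mock and 3879.8, 3675, 3605 and 3697 CPM in C-del libraries, close together and without overlap (log2 fold change 0.053, adjusted p = 0.478). Atp5a1, the alpha subunit that forms the catalytic head with Atp5b, had a log2 fold change of 0.053. Atp5pb of the peripheral stalk had 0.11 (adjusted p = 0.103) and Atp5o, which ties that stalk to the head, 0.030. Atp5c1 and Atp5e of the central stalk had 0.0075 and -0.011, and the subunit c genes Atp5g2 and Atp5g3 had 0.011 and 0.044. Atp5h, Atp5j, Atp5j2, Atp5k, Atp5l, Atp5md and Atp5mpl, of the peripheral stalk and membrane part, ran from -0.042 to 0.084.

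In all, 14 of the 47 members had every male C-del library above every male mock library and 1 had them all below, while 32 overlapped. Over all 14543 genes the corresponding shares were 9.08% above and 8.47% below. The 14 were 4 genes of complex III, 4 of complex IV, 5 of complex V and Cycs, and 0 of complex II. The summed level of the 50 members was 22748 to 23175 CPM in male mock and 23346 to 24349 CPM in male C-del libraries.

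**Figure D3:**
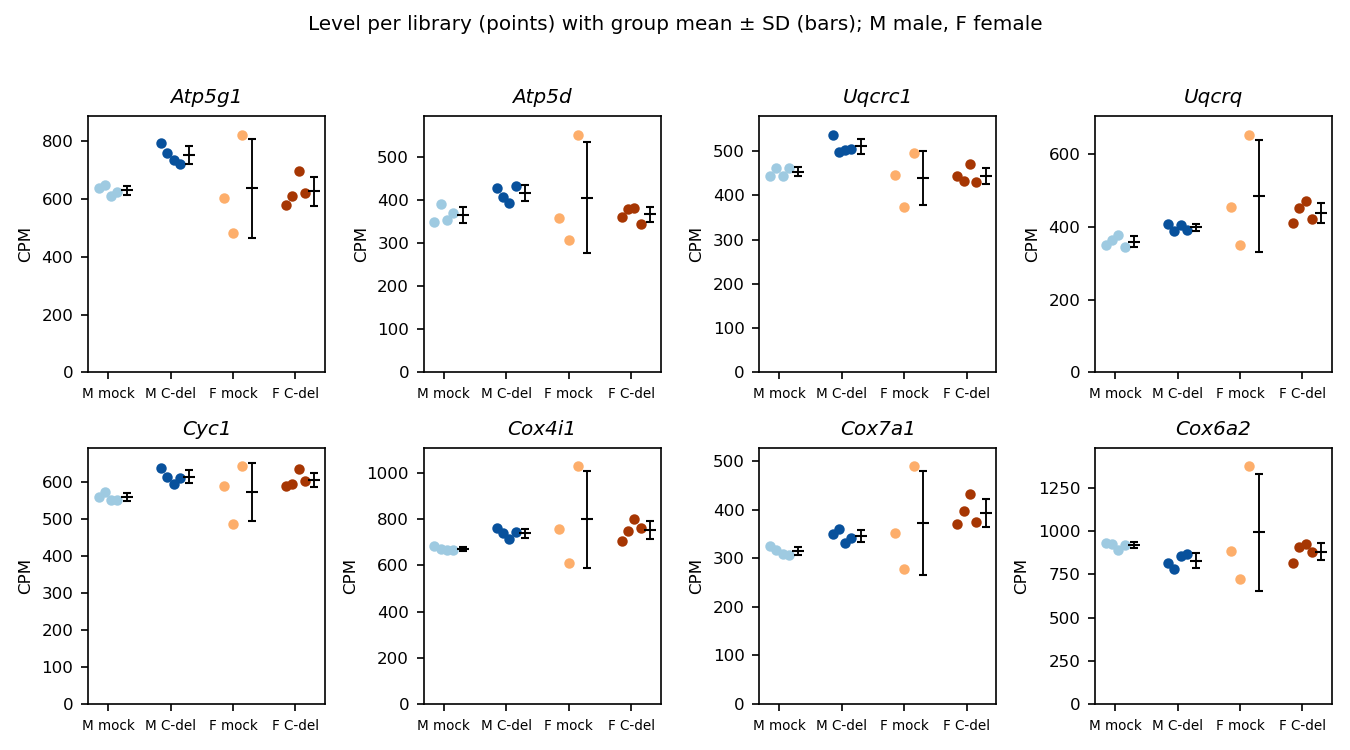
CPM per library (points) with the group mean and SD (bars) for the 6 members that rose in males and for Cox7a1 and Cox6a2, which lay just outside the threshold. M stands for male and F for female. Male points sit in narrow groups, and in each panel the female mock libraries hold both the lowest and the highest female value.

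The number of male calls moved with the libraries used and with the fit. Leaving out 1 library at a time gave 1 to 7 members, with 1 left without mock library 1. The share of all genes called fell as well, from 11.2% in the main fit to between 7.48% and 10.4%. Without both C-del libraries that were high in macrophage markers, 2 of the 6 passed, beside 7.57% of all genes. They were Atp5g1 (log2 fold change 0.21, adjusted p = 0.0064) and Uqcrc1 (0.15, adjusted p = 0.0367). The fit of all 15 libraries also tests more genes and scales both sexes together. There 0 of the members passed in males, beside 2.49% of all genes, although Atp5g1 kept a log2 fold change of 0.26 (adjusted p = 0.319). Over 18 alternatives, Atp5g1 passed in 15, Uqcrc1 in 13, Atp5d in 9, Uqcrq in 6 and Cox4i1 and Cyc1 in 5 each, and every alternative kept all 6 above 0.

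In females 0 of the 47 tested members passed, and 0 reached an unadjusted p under 0.05 in edgeR. The background was low as well: 0.0141% of the 14220 genes tested were called higher and 0% lower, while 4.81% and 7.09% had an unadjusted p under 0.05. All 47 members had overlapping groups, against shares of 5.71% of genes with every C-del library above and 4.44% with every C-del library below. The members' median log2 fold change was -0.10, with 16 above 0 and 31 below. By complex the medians were 0.077 for II, -0.030 for III, -0.11 for IV and -0.11 for V, and in males they were 0.015, 0.072, 0.052 and 0.032.

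The female members with the smallest p were Uqcrc2, Sdha, Cox6a1, Atp5g2 and Cox7c. Uqcrc2 lay at 710.2, 558 and 603 CPM in mock and 728, 695, 759 and 699 CPM in C-del libraries, so that 2 mock libraries were below all C-del libraries and library 1 was among them (log2 fold change 0.21 ± 0.11, adjusted p = 0.506). Sdha lay at 1287, 1109 and 1131 CPM in mock and 1328, 1269, 1363 and 1314 CPM in C-del libraries (0.17 ± 0.099, adjusted p = 0.55). Mock library 1 again lay within the C-del range.

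Cox6a1, the form of subunit 6a made in most tissues, lay at 18.4, 22.1 and 34.5 CPM in mock and 19.6, 22.5, 20.3 and 18.4 CPM in C-del libraries. Atp5g2 lay at 249, 214 and 365 CPM in mock and 226, 226, 252 and 231 CPM in C-del libraries. Cox7c, a small subunit of complex IV, lay at 409, 334 and 574 CPM in mock and 371, 379, 380.4 and 365 CPM in C-del libraries. In these last 3 genes the C-del libraries were close together and mock library 3 was the highest of all 7.

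The 6 members that rose in males had wide female mock groups. Atp5g1 lay at 604, 482 and 820.2 CPM in female mock and 577, 611, 695 and 621 CPM in C-del libraries, a log2 fold change of -0.021 ± 0.17. Uqcrc1 lay at 445, 375 and 497 CPM in mock and 444, 432, 469.9 and 430.1 CPM in C-del libraries, with 0.017 ± 0.12. In both genes all 4 C-del libraries fell between mock libraries 2 and 3. Atp5d, Uqcrq, Cox4i1 and Cyc1 had female log2 fold changes of -0.14, -0.15, -0.085 and 0.081, each smaller than its SE.

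The spread among female mock libraries was far wider than in any other group. The members' median coefficient of variation was 26.1% in female mock, 5.02% in female C-del, 3.18% in male mock and 2.99% in male C-del libraries. Against the mean of the other female libraries, mock library 3 was higher for 45 of 47 members, by a median of 0.50 on the log2 scale. Mock library 2 was higher for only 2 of 47, with a median of -0.32, and mock library 1 for 19 of 47, with a median of -0.016.

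In mock library 3 the size of that shift followed transcript length. The 18 tested members with a transcript of 600 bases or less had a median of 0.62, and the 9 members above 1500 bases 0.13. Sdha and Uqcrc2, both above that length, were the only members lower there than in the other female libraries, by -0.17 and -0.19. Across the 47 members the shift and the log2 length had a Pearson r of -0.78 and a Spearman rho of -0.67, a description over genes that share the library. All 12047 genes with a length gave a Spearman rho of -0.61, so the pattern was not one of these complexes alone.

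**Figure D4:**
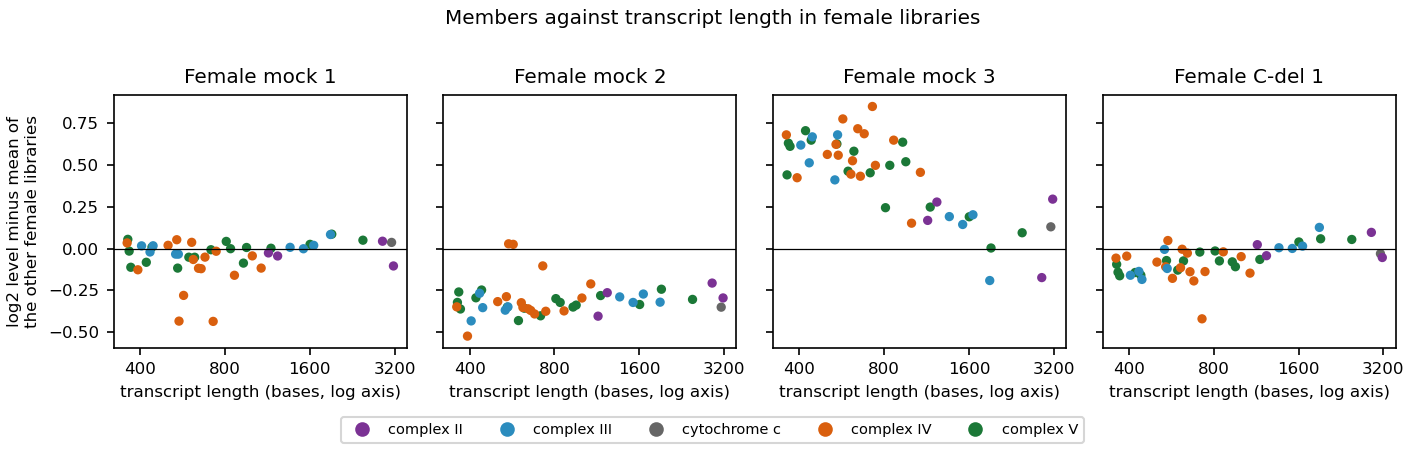
Log2 level of each tested member in a female library minus the mean of the other female libraries, against transcript length on a log axis, for the 3 mock libraries and, for comparison, C-del library 1. In mock library 3 the short transcripts lie near 0.62 and the long ones nearer 0, while mock library 2 lies near -0.32 at all lengths. C-del library 1 has the opposite trend with length (Spearman rho 0.58), and the mean it is set against includes mock library 3.

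Female fold changes followed length too. Members of 600 bases or less had a median log2 fold change of -0.16, with 17 of 18 below 0, and the 9 above 1500 bases had a median of 0.073, with 9 of 9 above 0. The Spearman rho of female fold change with length was 0.71 over the members and 0.37 over 12206 genes. In males it was 0.27 over the members and -0.12 over 12343 genes. Without mock library 3 the members' female median was 0.13, without mock library 2 it was -0.25, and without both it was 0.011, with 0 members passing each time. The part of RNA quality, of the cells sampled and of library making in these spreads was not tested.

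Averaged over the sexes, 0 members passed, beside 2.42% of 15272 genes called higher and 1.99% called lower. Uqcrc2 had the smallest p, with a log2 fold change of 0.15 ± 0.055 (adjusted p = 0.146). It was the only member at an unadjusted p under 0.05 in edgeR, beside 8.89% of genes higher and 10.8% lower. It passed with DESeq2 (adjusted p = 0.0451) and without female mock library 1 (0.00988). In these fits 6.87% and 13.2% of all genes were called, beside 4.41% in the main fit. By p in the main fit, Cyc1, Sdha, Cox7c and Uqcrc1 followed Uqcrc2 with 0.11, 0.083, -0.15 and 0.095 (adjusted p = 0.315, 0.359, 0.36 and 0.398). The members' median was -0.0042 and that of all genes -0.017.

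The female effect minus the male effect was also tested for each member, and 0 passed, beside 0.17% of genes called above 0 and 0.183% below, with 0 members at an unadjusted p under 0.05, where 7.09% of genes lay above 0 and 9.76% below. Atp5d, Atp5mpl, Sdha, Atp5g1 and Uqcrq had the smallest p, with differences of -0.34, -0.31, 0.16, -0.28 and -0.31 and SEs of 0.19, 0.18, 0.096, 0.18 and 0.19. The median difference was -0.15, with 8 members above 0 and 39 below. A rise in males without a call in females is therefore not shown to differ between the sexes.

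Some subunits are encoded by more than 1 gene, and the ratio of such genes within a library does not depend on how libraries are scaled. It is given here from counts with no correction for length, so it serves to compare libraries. In male mock muscle the log2 ratio of Cox6a2 to Cox6a1 was 5.18 ± 0.19 and that of Cox8b to Cox8a 3.83 ± 0.067. For Cox7a1, the heart and muscle form, to Cox7a2 it was 0.85 ± 0.063. In male C-del libraries these ratios were 5.05 ± 0.23, 3.76 ± 0.27 and 0.92 ± 0.051, and each overlapped the mock range. Per library, the other forms ran in males from 21.0 to 29.0 CPM for Cox6a1, from 23.5 to 31.2 CPM for Cox8a and from 169.6 to 185 CPM for Cox7a2.

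The ratio of the subunit c genes Atp5g1 and Atp5g3 differed between the male groups without overlap. The log2 ratio of Atp5g1 to Atp5g3 was -0.044, -0.010, -0.15 and -0.056 in mock and 0.20, 0.12, 0.16 and 0.11 in C-del libraries. These are ratios of counts, in which transcript length is not corrected for and 0 has no meaning of its own. Per length Atp5g1 was the higher of the pair in both male groups, with 1056 ± 26.1 against 922 ± 19.1 CPM per kilobase in mock and 1261 ± 52.9 against 950.4 ± 28.3 in C-del libraries. The ratio itself was not tested. Atp5g1 was part of this ratio and had already passed, whereas Atp5g3 lay at 657, 651, 678 and 648 CPM in mock and 692, 698, 655 and 669 CPM in C-del libraries. In females the ratio was -0.33, -0.31 and -0.28 in mock and -0.38, -0.29, -0.23 and -0.20 in C-del libraries, and these overlapped. The ratio varied little among the female mock libraries (SD 0.024), while both genes varied widely there.

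The ratio of Atp5g2 to Atp5g3 was -1.50 ± 0.075 in male mock and -1.53 ± 0.048 in male C-del libraries. In females it was -1.51 ± 0.081 in mock, from -1.60 to -1.45, and -1.70 ± 0.048 in C-del, from -1.74 to -1.63. The female groups did not overlap, although Atp5g2 itself did not pass there (adjusted p = 0.603). The female ratio of Cox7a1 to Cox7a2 was 0.81, 0.69 and 0.81 in mock and 0.90, 0.83, 0.88 and 0.82 in C-del libraries, which did not overlap by a narrow margin. The female ratios of Cox6a2 to Cox6a1 and of Cox8b to Cox8a overlapped. How often other gene pairs separate in females was not counted. The separated pairs differ in transcript length, with 441 bases for Atp5g2 and 714 for Atp5g3, and 393 for Cox7a1 and 659 for Cox7a2. Over the members, shorter transcripts went with lower female fold changes. The female log2 fold changes were -0.24 for Atp5g2 and -0.052 for Atp5g3, and 0.077 for Cox7a1 and 0.0026 for Cox7a2. The shorter gene was thus the lower of the first pair and the higher of the second. The part of length in these ratios was not tested.

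**Figure D5:**
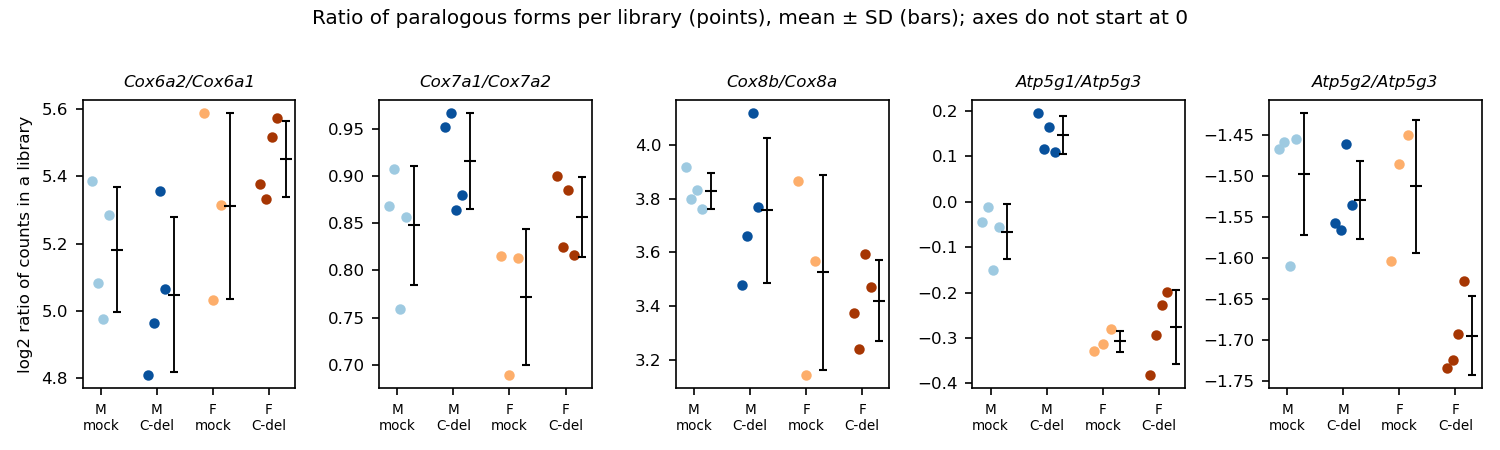
Log2 ratio of counts of paralogous genes in each library (points) with the group mean and SD (bars). M stands for male and F for female, and the axes do not start at 0. The ratio of Atp5g1 to Atp5g3 separates male mock (-0.15 to -0.010) from male C-del libraries (0.11 to 0.20).

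Promoter sequences of RefSeq (GRCm38.p6, from 250 bases before to 50 after an annotated start) were found for 38 of the 50 members, 36 of them tested. They include 3 of the 6 members that rose, namely Atp5g1, Uqcrc1 and Atp5d. Shown here are Atp5g1, which had the smallest p in males, Atp5b, which had the most RNA per length, Uqcrc1, the second member by p, and Cox6a1, a form at a low level with 2 matches to the NRF1 motif. Each is read 5′ to 3′ on the strand of its gene and stops before the annotated gene begins. Capitals mark the motif of nuclear respiratory factor NRF1 (GCGCA, any base, GCGC) or CCAAT, the box bound by NF-Y, on either strand. Atp5g1 is chr11:96075695-96075881 on the minus strand, Atp5b chr10:128083057-128083306 on the plus strand, Uqcrc1 chr9:108936398-108936647 on the plus strand and Cox6a1 chr5:115348959-115349208 on the minus strand.
Atp5g1: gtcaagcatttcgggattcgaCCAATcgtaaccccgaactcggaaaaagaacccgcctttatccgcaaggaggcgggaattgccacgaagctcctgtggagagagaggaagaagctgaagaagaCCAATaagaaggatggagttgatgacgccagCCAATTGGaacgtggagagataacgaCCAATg
Atp5b: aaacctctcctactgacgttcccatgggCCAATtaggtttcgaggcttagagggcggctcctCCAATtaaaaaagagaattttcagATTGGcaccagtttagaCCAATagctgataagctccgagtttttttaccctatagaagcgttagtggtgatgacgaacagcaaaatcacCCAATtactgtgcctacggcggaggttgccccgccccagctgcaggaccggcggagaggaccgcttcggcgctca
Uqcrc1: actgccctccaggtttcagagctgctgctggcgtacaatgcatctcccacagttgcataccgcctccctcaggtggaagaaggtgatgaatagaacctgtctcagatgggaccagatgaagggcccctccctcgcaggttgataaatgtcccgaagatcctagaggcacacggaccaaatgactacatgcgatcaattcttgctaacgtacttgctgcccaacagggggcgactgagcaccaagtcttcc
Cox6a1: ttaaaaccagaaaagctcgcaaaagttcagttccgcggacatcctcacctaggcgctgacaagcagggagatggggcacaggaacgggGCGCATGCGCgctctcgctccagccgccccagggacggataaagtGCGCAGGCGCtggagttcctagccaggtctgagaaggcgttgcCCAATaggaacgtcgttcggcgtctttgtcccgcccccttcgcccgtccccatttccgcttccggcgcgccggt

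The NRF1 motif was held, on either strand of the 300-base window, by 10 of the 36 tested members (27.8%) and by 10.8% of 10824 tested genes with a promoter. The 10 were Atp5c1, Atp5g2, Atp5g3, Atp5h, Atp5k, Atp5o, Cox6a1, Sdha, Sdhd and Uqcrc1, and in Uqcrc1 the match lay after the start, outside the stretch shown. The ETS motif CCGGAAGT, bound by GABP, was held by 4 members (11.1%, against 8.50% of tested genes). The ERR motif TNAAGGTCA, bound by oestrogen-related receptors, was held by Atp5g3 and Sdhd (5.56%, against 0.878%), and the YY1 motif AANATGGCG by 3 members (8.33%, against 5.66%). Among the 3 risen members with a promoter, Atp5g1 and Atp5d held none of these 4 motifs. A match is a string of letters and not a shown site of binding.

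CCAAT was searched after the Atp5g1 sequence had been seen. Atp5g1 and Atp5b each held 5 matches on either strand in the 250 bases before the start, where the ccagCCAATTGGaac stretch of Atp5g1 counts as 2 because the palindrome reads on both strands. These were the only tested members with 4 or more (2 of 36, 5.56%, against 1.58% of tested genes). At least 1 match was held by 52.8% of the members and 39.9% of tested genes. Of this pair Atp5g1 rose in males and Atp5b did not pass.

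Other genes of the pathway were followed from lists, whose counts stand beside 5.8% of all genes called higher and 5.37% called lower in males. A list of 46 genes was set for the assembly of complexes II to V and also holds proteins bound to mitochondrial RNA, such as Fastk. Of these 46 genes, 3 rose in males and 0 fell: Cox10, an enzyme needed to make the heme of complex IV (log2 fold change 0.25, adjusted p = 0.00278), Uqcc3, an assembly factor of complex III (0.25, adjusted p = 0.0293), and Fastk (0.15, adjusted p = 0.0341). Their median was 0.073 in males and -0.030 in females, where 0 passed. Cox10 passed in the average of the sexes too (0.22, adjusted p = 0.0116). Of 37 complex I subunits, which feed electrons from NADH into the chain, 4 rose in males and 0 fell, with a median of 0.046: Ndufs4, Ndufb10, Ndufa8 and Ndufb7, with log2 fold changes of 0.24, 0.23, 0.19 and 0.17 (adjusted p = 0.00414, 0.0047, 0.00902 and 0.0289). The median of complex I in females was -0.13, with 0 passing.

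Of 25 regulators of mitochondrial genes, 3 rose in males and 0 fell. Ppargc1b, a coactivator of genes of oxidative metabolism, had a log2 fold change of 0.59 (adjusted p = 0.000224), the nuclear receptor Ppard 0.37 (adjusted p = 0.0048) and Esrra, the oestrogen-related receptor alpha, 0.23 (adjusted p = 0.00902). In females 0 of the 25 passed, and Ppargc1b had 0.73 (adjusted p = 0.152). Ppargc1b was also the regulator that passed in the average (0.66, adjusted p = 0.000377).

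The cytosolic ribosome gave a set of short and abundant mRNAs of another kind. The list was taken by symbol, so it also took in Rps19bp1, Rpl37rt, Rps27rt and Rps23rg1, whose symbols are not those of standard ribosomal protein genes. Of the 83 genes listed, 1 rose (Rpl37rt) and 1 fell (Rpl12) in males, with a median of -0.019. In females all 83 had a log2 fold change below 0, with a median of -0.34 and 0 passing.

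Markers of fibre types and other cells also differed between the male groups, and within each fibre list they did not all go in 1 direction. The summed level of 11 slow and oxidative fibre markers was 5160 to 5808 CPM in mock libraries, 8231 and 7791 CPM in C-del libraries 1 and 2, and 6102 and 6249 CPM in C-del libraries 3 and 4. Within that list 1 gene passed, Mb, the oxygen store myoglobin (log2 fold change 0.41, adjusted p = 0.0246), while 7 of the 11 lay below 0 and the median was -0.030. Of 10 fast fibre markers 1 passed, Myh1, the myosin of intermediate fast fibres, as higher (0.39, adjusted p = 0.0114), while the other 9 lay below 0 and the median was -0.076. Their sum was 135864 to 145293 CPM in mock libraries, 122377 and 120137 CPM in C-del libraries 1 and 2, and 139336 and 146511 CPM in C-del libraries 3 and 4.

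Of 11 macrophage markers tested in males 10 lay above 0, with a median of 0.69 and 0 passing. Of 10 tendon markers all 10 lay below 0, with a median of -0.78 and 1 called lower, and their sum was 752 to 2164 CPM in mock and 645 to 923 CPM in C-del libraries. All 5 erythroid markers lay above 0, with 0 passing. The summed level of 8 pericyte and smooth muscle markers was 1275 to 1335 CPM in mock and 1116 to 1143 CPM in C-del libraries, with 6 of the 8 called lower. In females the slow and oxidative sum was 6462 to 11545 CPM in mock and 12836 to 15405 CPM in C-del libraries, where Myh2, the oxidative fast myosin, had a log2 fold change of 1.29 (adjusted p = 0.0775). The 11 markers ran there from -0.72 to 1.29, with 5 below 0, a median of 0.060 and 0 passing. The part of fibre type and cell mixture in the members' values was not tested.

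Reads could be shared for some members, since the sources used do not give how strand was treated in counting. In RefSeq 16 of the 50 members overlap another gene, among them Uqcrq with Gdf9, Atp5d with Cbarp, Uqcrc2 with Pdzd9, Cox7a2 with Tmem30a and Atp5j with Gabpa. In male mock libraries the mean was 9.53 CPM for Gdf9 beside 359 CPM for Uqcrq, and 5.40 CPM for Cbarp beside 365 CPM for Atp5d. Other partners were nearer: Tmem30a had 107 CPM beside 175 CPM for Cox7a2, Gm51883 had 83.1 CPM beside 164 CPM for Uqcr10, and Bcl2l1 had 14.3 CPM beside 2.57 CPM for Cox4i2, so these 3 members are less sure. Atp5a1 and Uqcrc1 each had a second entry in the tables with identical values, which was not counted.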

How the data were processed

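RNA-seq of 15 tibialis anterior libraries was used. Per the labels, the library kit selects mRNA and marks strand. The deposited tables hold expected counts per gene, estimated counts of which 14.6% to 17.3% per library were not whole within 0.001. The submitters' processing notes name featureCounts 2.0.0 and GRCm38.p6. An aligner and counting options were not given in the sources used. Male columns match the labels by group alone.

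Counts were rounded. Genes were kept by filterByExpr at a minimum count of 10, scaled by TMM and tested in R 4.3.3 with edgeR 4.0.16 (robust quasi-likelihood, Benjamini-Hochberg over all genes tested, threshold 0.05), each sex alone. A joint fit of 15 libraries gave 2 contrasts, the average over the sexes and the effect in females minus that in males. The test was tried on simulated data. DESeq2 1.42.0 was an alternative. Library numbers are used as names, and the main fit does not pair female libraries by number. SEs were obtained from the fold change and its F statistic.

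The members, lists and tests were chosen with earlier results of these data known, so a list's direction is not independent evidence. By the rule for named genes, values per library are given for members that passed, for the highest member per length of each complex and for paralogous forms. Where fewer than 3 members passed, the 5 with the smallest p are named. Up to 4 passing genes of each list are named. Cox7a1, Atp5g3 and further members were added after their values were seen. Transcript lengths are those of the principal GENCODE vM21 transcript of each gene.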

Additional observations from a re-analysis of the deposited data

Results flagged for a closer look

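For each of the 47 tested members, groups of 4 libraries were searched for a library far from the rest. Of 141 groups of values 7 (4.96%) held one, beside about 1 in 20 that chance gives. In male mock library 3 Atp5g2 was low, at 222 CPM against 236 CPM in the nearest library. Male mock library 2 was low for Cycs, at 553 CPM against 615 CPM, and for Uqcrb, at 264 CPM against 292 CPM. In male C-del library 3 Cox7c was low, at 259 CPM against 270.1 CPM. Female C-del library 3 was high for Atp5h, at 408 CPM against 369 CPM, and for Atp5o, at 506 CPM against 471.1 CPM. In female C-del library 4 Cox5a was low, at 514 CPM against 566 CPM. None of these 7 members passed in any of the 4 comparisons of edgeR. The female mock group of 3 libraries was not searched in this way.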

How the results depend on the processing

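The 6 male calls became 0 in the fit of all 15 libraries, 0 with neighbouring male columns summed and 0 without mock libraries 3 and 4 together. In that order 2.49%, 1.70% and 5.12% of all genes were called, beside 11.2% in the main fit. The male calls became 2 without C-del libraries 1 and 2 together (7.57% of all genes), an alternative chosen after seeing the data. Without a single library they became 1 to 7: 1 without mock library 1, 2 without mock library 3, mock library 4 or C-del library 1, and 3 without C-del library 4. The shares of all genes ran there from 7.48% to 10.4%. DESeq2 called 8 higher and 1 lower, no filter on low counts 5 higher and 1 lower, and both upper-quartile factors and library totals alone 3 higher and 1 lower, where Cox6a2 was the lower gene. Of all genes, 10.2%, 6.58%, 11.4% and 10.7% were called at these settings, respectively. For the average of the sexes the count of 0 became 1 with DESeq2 and 0 to 2 without a single library: 1 without female mock library 1 (Uqcrc2), 1 without mock library 2 (Cox7c, lower), and 2 without mock library 3 (Atp5g1 and Cox7a1). The shares of all genes called were 6.87% with DESeq2 and 13.2%, 4.91% and 6.42% without female mock libraries 1, 2 and 3. In the main fit of the average the share was 4.41%. Counts for females and for the female minus male effect were 0 in every alternative run. The share of all genes called in females was 0.0141% in the main fit. It was highest at 7.14% without female mock library 1, 5.09% in the fit of all 15 libraries and 2.92% with DESeq2. For the female minus male effect it was 0.354% in the main fit, 11.5% without female mock library 1 and 4.01% with DESeq2. No value of a member that passed changed its direction. Where counts moved, the cause was not tested.

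With a replicate block on the shared female numbers, 0 female members passed, as without it. The labels do not state whether the numbers mark a shared animal or day. The deviations of same-numbered female libraries had correlations of -0.13, -0.015 and -0.042 over 13998 genes. Libraries with different numbers had correlations from -0.17 to 0.21, and so few libraries cannot settle whether the numbers pair them. The SEs of the 6 members that rose in males were 0.040 to 0.049 in males and 0.11 to 0.19 in females. With such SEs, a rise of the male size in the 7 female libraries is neither shown nor excluded, and the power to detect it was not computed.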
